A study of Homo sapiens with 74 samples.

Results

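ZNF706 and ZNF800 are zinc-finger proteins (ZFPs) whose chromatin contacts were mapped by Cut&Run, an assay in which an antibody brings a nuclease to a tagged protein and the released DNA is sequenced. Each ZFP had 2 replicate peak lists, and its members are the regions where a peak of replicate 1 overlapped a peak of replicate 2 by at least 1 bp, apart from its own exons and EEF1A1. There were 300 such regions for ZNF706 and 360 for ZNF800, 660 of the 11548 regions found in both replicates over all 36 ZFPs, own exons and EEF1A1 included in the latter. Each ZFP was expressed for 48 h in HEK293T, a transformed human embryonic kidney line, from a transfected plasmid with its ORF, a C-terminal V5 tag and the EF1-alpha promoter; the mock IP control was un-transfected HEK293T taken through the same V5 procedure. The tagged protein is therefore exogenous, the control cells hold no plasmid, and each replicate was a separate well of cells. The series holds 2 mock IP libraries beside its 72 peak lists, and the lists do not say which of them served which ZFP. ZNF706 and ZNF800 may therefore share one with each other and with other ZFPs.

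C2H2 zinc fingers are small zinc-holding folds, several of which in a row can read a stretch of DNA bases. ZNF706 is a very short protein with 1 such finger, and its mouse counterpart is known from embryonic stem cells, where it acts on the exit from self-renewal through Klf4. ZNF800 carries several fingers and is known as a brake on the endocrine program of the pancreas and gut, whose drivers include NEUROG3 and INSM1. Repeated DNA, in which the same bases recur in tandem near centromeres and telomeres or as dispersed copies, matters for such maps because a short read from one copy can be placed on another.

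The regions lay almost wholly in repeated or multi-copy DNA for both ZFPs. Pentamer satellite-like sequence, defined as at least 5 ATTCC or GGAAT words within 100 bp of the summit, made up 154 of 300 ZNF706 regions (51.3%, exact 95% interval 45.5 to 57.1%) and 250 of 360 ZNF800 regions (69.4%, interval 64.4 to 74.2%). Only 8 ZNF706 regions and 6 ZNF800 regions fell into no class of repeated sequence. A TSS of GENCODE 44 lay within 1 kb of 21 ZNF706 regions (7.0%, interval 4.39 to 10.5%) and of 17 ZNF800 regions (4.72%, interval 2.77 to 7.45%). The regions with the highest fold shared by both ZFPs were U1 small nuclear RNA genes. These shares depend on asking for both replicates. Of all peaks of replicate 2 alone, 33.1% in ZNF706 and 45.4% in ZNF800 were satellite-like, and 8.999% in ZNF800 lay near a TSS. Intervals cover counting error only, and read depth per library is not given in the lists.

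The sequences behind these classes were read from hg38, plus strand, 5′ to 3′. The first is the U1 gene RNU1-4 at chr1:16740516-16740679, shown because it had the highest lower fold shared by both ZFPs; capitals mark the bases from 3 to 11 that pair with 5′ splice sites.
RNU1-4: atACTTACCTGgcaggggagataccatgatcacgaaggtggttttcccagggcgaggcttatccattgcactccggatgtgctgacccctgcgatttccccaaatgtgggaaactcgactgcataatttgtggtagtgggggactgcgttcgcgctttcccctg
The next is a centromeric region of chromosome 17 at chr17:24421406-24421578, the highest with a tandem period of 170 ± 3 bp, the length of the alpha satellite unit of centromeres; capitals mark a match to the CENP-B box, the site that the centromere protein CENP-B reads in alpha satellite DNA.
Chromosome 17 region: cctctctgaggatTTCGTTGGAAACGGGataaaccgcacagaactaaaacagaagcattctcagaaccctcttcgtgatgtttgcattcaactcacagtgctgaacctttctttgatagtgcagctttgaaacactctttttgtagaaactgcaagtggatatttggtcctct
The satellite-like region with the highest lower fold in each ZFP is shown over 201 bp around its summit, at chrY:10631145-10631345 for ZNF706 and chrY:10892441-10892641 for ZNF800; capitals mark ATTCC, found 26 and 20 times.
ZNF706 satellite-like region: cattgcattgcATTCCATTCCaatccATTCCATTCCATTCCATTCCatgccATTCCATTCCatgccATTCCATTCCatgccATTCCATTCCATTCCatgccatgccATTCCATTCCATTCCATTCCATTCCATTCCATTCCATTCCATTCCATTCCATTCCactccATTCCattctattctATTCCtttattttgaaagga
ZNF800 satellite-like region: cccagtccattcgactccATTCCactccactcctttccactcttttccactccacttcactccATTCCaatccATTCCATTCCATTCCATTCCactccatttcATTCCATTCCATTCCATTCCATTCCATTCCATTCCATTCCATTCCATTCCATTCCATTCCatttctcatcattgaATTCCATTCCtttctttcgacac
The strongest ribosomal region at chr21:8254906-8255107 lies in 18S rRNA, and capitals mark the bases around the summit.
18S rRNA region: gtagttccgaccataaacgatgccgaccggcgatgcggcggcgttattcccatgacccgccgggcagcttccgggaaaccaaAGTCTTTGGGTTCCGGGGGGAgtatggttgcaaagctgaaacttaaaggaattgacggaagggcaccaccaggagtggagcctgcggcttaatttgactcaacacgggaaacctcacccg
Shorter tandem repeats are shown by an intron of F13A1 at chr6:6261925-6261998, which no other ZFP had a peak on, and by the SNTG2 intron at chr2:1222937-1223076, the ZNF706 region of the 68-bp class with the highest lower fold; capitals mark the first of the repeated units, which were 100% and 98.6% identical to the next.
F13A1 intron: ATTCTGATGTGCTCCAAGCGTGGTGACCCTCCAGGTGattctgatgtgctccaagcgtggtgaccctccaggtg
SNTG2 intron: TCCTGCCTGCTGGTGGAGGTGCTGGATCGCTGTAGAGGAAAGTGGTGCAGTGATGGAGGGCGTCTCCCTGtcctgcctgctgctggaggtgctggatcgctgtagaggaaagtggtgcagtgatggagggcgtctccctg

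The 4 lists were of like length. Apart from own exons and EEF1A1, ZNF706 had 545 and 716 peaks and ZNF800 had 685 and 689 peaks in replicates 1 and 2. The 72 lists of the series held 15 to 8702 peaks. The median peak was 171 bp and 185 bp wide for ZNF706 and 215 bp and 196 bp for ZNF800. The median fold, the signal over the mock IP at the summit, was 3.65 in both ZNF706 lists, and 3.27 and 3.47 in those of ZNF800. Of the ZNF706 peaks, 57.1% in replicate 1 and 42.9% in replicate 2 overlapped a peak of the other replicate; for ZNF800 these shares were 53.4% and 57.0%. A peak was thus about as often found in only 1 library as in both.

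Every list had its highest folds on sequence that the plasmid also carries, or a copy of it. ZNF706 peaks covered 254 of the 287 annotated coding bases of ZNF706 in each replicate, with folds of 404 and 373 on one exon and 325 and 271 on the other. ZNF800 peaks covered all 1992 coding bases of ZNF800 with 4 peaks per replicate, at folds from 406 to 2177. Neither ZFP had a peak on the coding exons of the other. EEF1A1, the gene that gives the EF1-alpha promoter, had folds of 564 and 1330 with ZNF706 and of 625 and 1091 with ZNF800. Whether these reads came from the plasmid was not tested. The regions check the labels and are not counted further.

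One more region matched the ORF. The member with by far the highest fold was a ZNF706 region at chr1:224175477-224175792, with folds of 690 and 649, over a TSS and exon, but no coding base, of DEGS1, which encodes a desaturase of ceramide synthesis. It covered ENSG00000236773, a processed pseudogene on the minus strand. The complete ZNF706 ORF clone of 228 bases aligned to it without a break, with 225 identical bases (98.7%), while on chromosome 8 the ORF was split over exons of 135 and 94 aligned bases. No ZNF800 list and no list of the other 34 ZFPs had a peak there. Reads of the plasmid and of this locus cannot be told apart in the lists, and without it ZNF706 had 299 regions.

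Coding exons of other zinc-finger genes carried weaker peaks. ZNF574, itself among the 36 ZFPs, had a region at chr19:42080145-42081253 with folds of 6.90 and 7.30 for ZNF706, and one at chr19:42080443-42081216 with folds of 7.18 and 7.42 for ZNF800. The peaks covered 20.1% and 60.4% of its 2958 coding bases with ZNF706 and 17.4% and 43.6% with ZNF800. In the ZNF574 libraries the same exon had folds of 2205 and 2198, and RNF14 had 6.42 and 5.05 there. APEX2, CISD1 and GTF3C4 had peaks on ZNF574 in only 1 replicate. The coding exons of ZNF473, at chr19:50044669-50047083, had folds of 12.97 and 7.42 with ZNF800, over 96.1% and 59.7% of 2710 coding bases. ZNF706 covered 33.9% of them in replicate 2 and none in replicate 1. SNRPC (25.3 and 19.3) and G2E3 (5.26 and 13.9) had peaks on ZNF473 in both replicates as well. CISD1, GIN1, RNF14 and TRIM55 had peaks there in only 1 replicate. Per the paper, ZNF473 was also taken through Cut&Run, but no ZNF473 list is among those used here. Whether plasmid of another well contributed to these peaks was not tested.

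**Figure D1:**
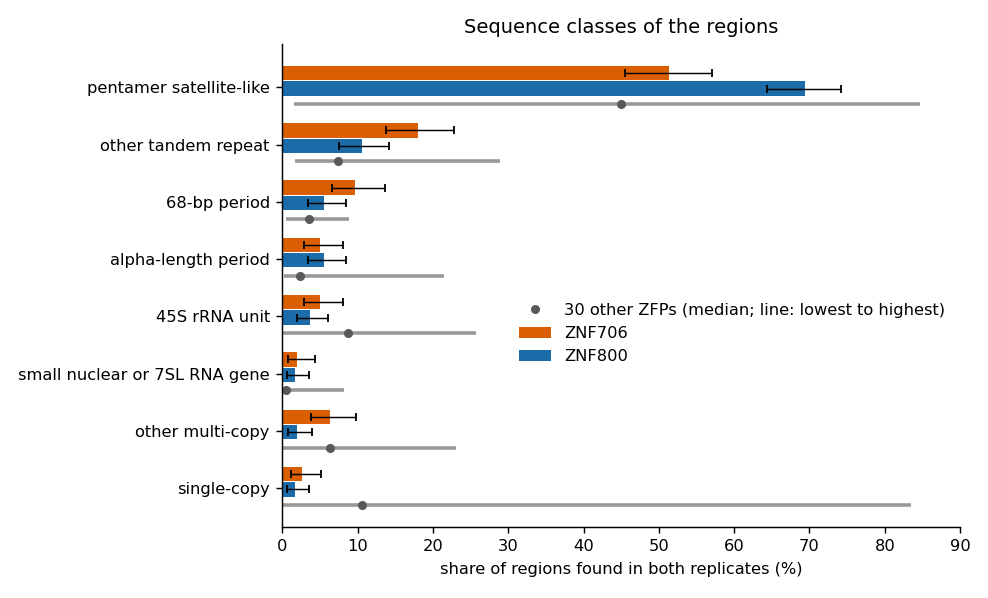
Sequence classes of the 300 ZNF706 and 360 ZNF800 regions, as a share of regions in percent (horizontal axis). Bars give the share with its exact 95% interval, and grey dots and lines give the median and range of 30 other ZFPs with at least 50 regions; the satellite-like class is the longest bar of both ZFPs, at 51.3% and 69.4%.

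Each region was put into 1 class, in a fixed order that the plot of sequence classes shows with its shares. After satellite-like sequence, other tandem repeats, in which at least 60% of bases matched those a fixed period of up to 200 bp away, took 54 ZNF706 regions (18%) and 38 ZNF800 regions (10.6%). A period near 68 bp, the length of the beta satellite unit, was found in 29 and 20 regions. The alpha satellite length was found as period in 15 and 20, called the alpha-length class here. The 45S rRNA unit gave 15 and 13, and small nuclear or 7SL RNA genes 6 and 6. Other multi-copy sequence, in which the 31 bases at the summit occurred more than once in hg38, gave 19 and 7. Over all classes, 85.3% of ZNF706 regions and 84.4% of ZNF800 regions had a summit whose 31 bases were multi-copy.

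Among the 32 ZFPs with at least 50 such regions, ZNF706 stood 15th and ZNF800 4th by the satellite-like share, whose median in the 30 others was 44.97%. By the 68-bp share ZNF706 stood 1st, with 9.67% against a highest value of 8.79% in the others. By the single-copy share they stood 24th and 29th, with 2.67% and 1.67% against a median of 10.6%. These ranks are a description and no test was made of them.

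Satellite-like regions had low folds. Their lower fold of the 2 replicates had a median of 2.56 in ZNF706, below every other class, and of 2.69 in ZNF800, where the 68-bp class had 2.67. The highest values were 6.46 and 6.71, both on chromosome Y. None of them lay within 1 kb of a TSS. They gathered in a few blocks. The pericentromere of chromosome 4, at chr4:49091667-49654040, held 40 ZNF706 regions, and chr4:49091392-49657686 held 48 ZNF800 regions. Blocks next to the centromeres of chromosome 1 held 25 and 40, of chromosome 10 held 12 and 24, of chromosome 20 held 13 and 16, and of the Y chromosome held 9 and 17. The strongest ZNF706 region of this kind, at chrY:10630845-10631487, had folds of 6.46 and 6.48 in ZNF706 and a peak of 6.78 and 4.44 in ZNF800. The strongest ZNF800 region, at chrY:10892143-10892627, had folds of 9.04 and 6.71, with a peak of 6.92 in ZNF706 replicate 1 only. On chromosome 20 a region at chr20:31241546-31241928 had 5.13 and 5.87 in ZNF706 and 5.66 and 5.04 in ZNF800, close in all 4 lists. A region at chr22:16359465-16359891 had 5.72 and 7.82 in ZNF800 and no ZNF706 peak.

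Centromeric repeats of the alpha-length class included the strongest intergenic region of both ZFPs. The chromosome 17 region printed above had folds of 10.1 and 9.05 in ZNF706 and 10.5 and 8.46 in ZNF800, so the ZFPs overlapped. Peaks of 5 other ZFPs (GTF3C4, MAZ, RNF14, ZNF574 and ZNF593), in both replicates of each, had folds of 5.60 to 10.3 there. A match to the CENP-B box was found in 8 ZNF706 regions and 13 ZNF800 regions, all of them in this class. Most of the class lay on chromosome 1, with 8 and 11 regions, and chromosome 17, with 4 and 5. A ZNF800 region at chr1:123480362-123480799 had folds of 9.63 and 6.64, against 7.31 and 5.83 in ZNF706.

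The 68-bp class was led in number by an unlocalized contig of chromosome 14, chr14_GL000225v1_random, with 16 of 29 ZNF706 and 9 of 20 ZNF800 regions. By the lower fold of the 2 replicates the SNTG2 intron came first in ZNF706, at 6.11 and 8.04, just ahead of a region of that contig at 7.80 and 6.04. On SNTG2, ZNF800 had a peak of 6.65 in replicate 2 only. Of the other tandem repeats, an intron of TMEM242 at chr6:157311330-157312197 had 8.25 and 7.91 in ZNF706 and 6.45 and 5.52 in ZNF800. Peaks of 27 of the other 34 ZFPs lay there too. An intron of FAM118B at chr11:126226167-126226381 had 7.24 and 7.88 in ZNF800 and 5.51 in ZNF706 replicate 2. Chromosome ends gave 5 regions in each ZFP. The end of chromosome 5 was the strongest, with folds of 6.74 and 6.68 in ZNF706 and of 6.24 and 6.65 in ZNF800, and 32 other ZFPs had a peak there.

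Ribosomal regions fell on the mature rRNAs of the 45S unit. In ZNF706, 8 regions lay over 18S rRNA and 7 over 28S rRNA, and in ZNF800 7 and 6. Over 18S they all fell between bases 4715 and 4950 of the 13351-base unit, in copies on chromosome 21, an unlocalized contig of chromosome 22 and an unplaced contig. The strongest had folds of 6.69 and 6.27 in ZNF706 and of 4.801 and 4.92 in ZNF800. Both ZNF800 values were below both ZNF706 values, and lists of other ZFPs ranged from 2.63 to 64.5 at this region.

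**Figure D2:**
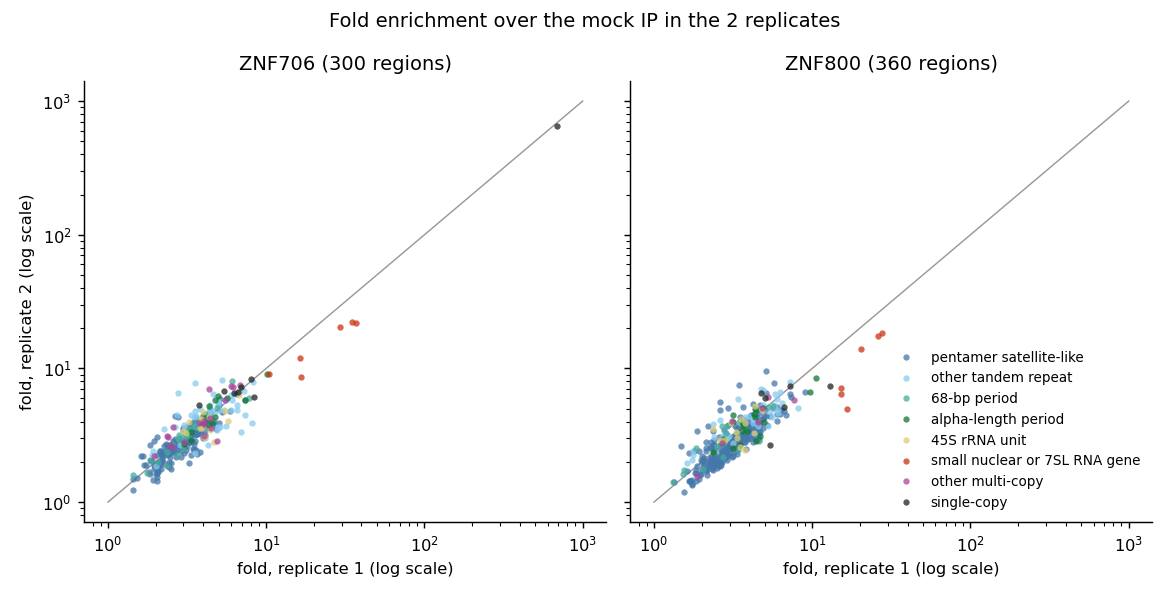
Fold over the mock IP in replicate 1 (horizontal) and replicate 2 (vertical), both on log scales, for each region of ZNF706 (left) and ZNF800 (right), with colours for sequence classes and a line where replicates are equal. Most points lie between 1 and 10 on both axes; the small nuclear and 7SL RNA genes lie beyond most of them and below the line, and the ZNF706 region at 690 and 649 is the pseudogene.

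Among these regions, kept because both replicates had a peak there, the 2 replicates mostly gave folds of similar size. Peaks found in only 1 replicate are not part of this comparison. The folds differed by no more than 1.5 times in 277 of 300 ZNF706 regions (92.3%) and in 335 of 360 ZNF800 regions (93.1%). In the class of small nuclear or 7SL RNA genes this held for only 3 of 6 regions in each ZFP. In ZNF800 only 3 of these 6 were within 2 times. Replicate 1 was the higher in 167 ZNF706 and 245 ZNF800 regions. A lower fold of at least 10 was seen for 5 ZNF706 regions, namely the pseudogene and all 4 U1 genes, and for 3 ZNF800 regions, all of them U1 genes.

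U1 RNA is the part of the spliceosome that recognises 5′ splice sites. RNU1-4 had folds of 34.96 and 22.3 in ZNF706 and of 27.4 and 18.4 in ZNF800. RNU1-2, at chr1:16895980-16896143, had 37.2 and 21.9 in ZNF706 and 20.3 and 13.9 in ZNF800. RNU1-27P, at chr14:34546714-34546877, had 29.2 and 20.5 in ZNF706 and 25.9 and 17.6 in ZNF800. RNVU1-29, at chr1:146376807-146376970, had 16.4 and 12.0 in ZNF706 and 16.7 and 5.00 in ZNF800. In all 4 genes replicate 1 was above replicate 2 in both ZFPs, and only for RNU1-2 was ZNF706 above ZNF800 in both replicates without overlap.

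The peaks kept to the gene body. In ZNF706 replicate 1 the RNU1-4 peak covered 99.4% of the 164-base gene, and 94.2% of the peak lay inside it. All 4 genes have the same 164 bases, and 8 of the 143 annotated U1 genes and copies do. Of the 4 further identical genes, RNU1-1, RNVU1-18 and RNU1-28P had peaks in ZNF706 replicate 1 alone, at 11.1, 9.99 and 8.07, and RNU1-3 had none in any of the 4 lists. The lists cannot say which of the identical copies the reads came from. Peaks on RNU1-4 were found in 15 of the other 34 ZFPs, with folds of 4.07 to 68.3 and a median of 25.96 over 23 lists.

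RN7SK, the RNA that holds the elongation factor P-TEFb in an inactive state, had folds of 16.6 and 8.58 in ZNF706 and of 15.2 and 7.101 in ZNF800. RN7SL1, the RNA of the signal recognition particle, had 10.5 and 9.01 in ZNF706, and a ZNF800 peak of 8.22 in replicate 1 only. RNU2-2P, a U2 gene copy at chr11:62841619-62841809 beside the TSS of WDR74, had 15.2 and 6.49 in ZNF800 and 8.27 in ZNF706 replicate 2 only. These genes thus had a peak in 3 or 4 of the 4 lists, and the plot of folds at named regions shows them beside the lists of other ZFPs. For RN7SK, 23 other ZFPs had a peak, at 5.42 to 59.6, and for RN7SL1 26 had one, at 2.996 to 58.1.

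**Figure D3:**
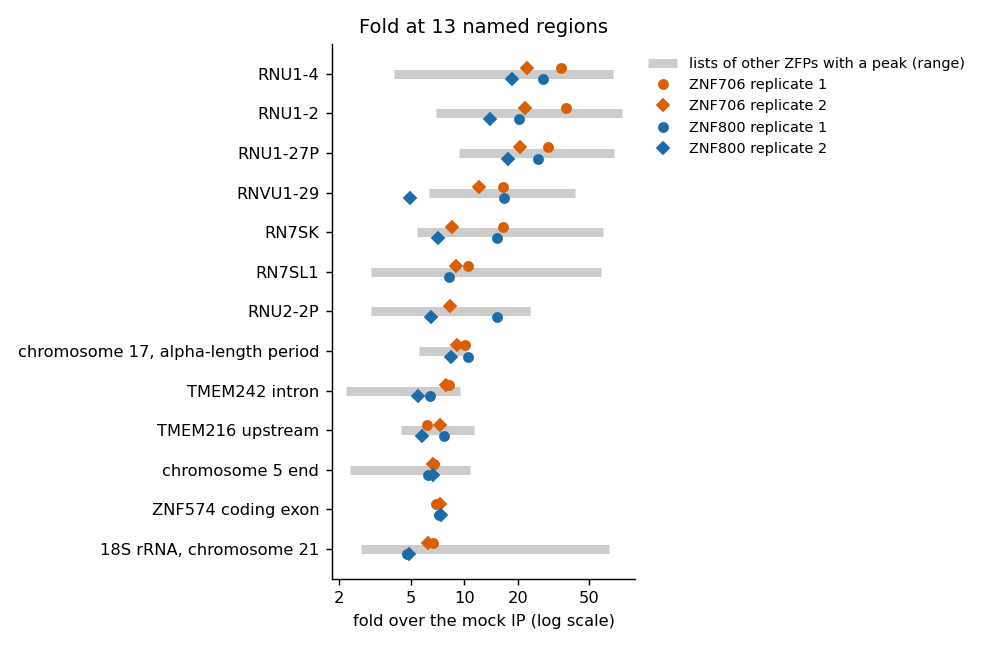
Fold over the mock IP (log scale, horizontal) at 13 named regions, with circles for replicate 1 and diamonds for replicate 2 of ZNF706 and ZNF800. Grey bars give the range over lists of the other 34 ZFPs with a peak there (not drawn for ZNF574, whose own libraries reach 2205); all ZNF706 and ZNF800 values lie within the bars except RNVU1-29 in ZNF800 replicate 2, at 5.00, and the chromosome 17 region in ZNF800 replicate 1, at 10.5.

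TSSs within 1 kb belonged to 28 genes for ZNF706 and 22 for ZNF800, 0.0457% and 0.0359% of the 61228 gene names in GENCODE 44. The genes common to both numbered 18, that is 64.3% of the ZNF706 genes and 81.8% of the ZNF800 genes. All but 1 of the 21 ZNF706 regions there were small RNA genes, rRNA, tandem repeats or other multi-copy sequence, and the exception was the pseudogene; all 17 ZNF800 regions were of those kinds. Protein-coding TSSs lay within 1 kb of 7 regions in each ZFP.

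Apart from DEGS1 and the neighbours of small RNA genes (CROCC, GSTA4, RPS29 and WDR74), the protein-coding genes were TMEM216, ADAP1, MUC3A and RPTOR. TMEM216, a gene of the ciliary transition zone, had a region ending 504 bp from its TSS with 6.15 and 7.30 in ZNF706, and one at 561 bp with 7.66 and 5.79 in ZNF800. ADAP1 had 4.72 and 4.75 in ZNF706 and 5.41 and 4.69 in ZNF800 on a repeat with a period of 7 bp, which 30 other ZFPs had a peak on. MUC3A, a membrane mucin whose gene contains coding tandem repeats, had 3.01 and 3.76 in ZNF706 and 3.67 and 3.77 in ZNF800. In these genes the values of the ZFPs overlapped. RPTOR, a subunit of the mTORC1 kinase complex, had 5.57 and 4.33 in ZNF800 at a repeat 908 bp from a TSS, and no ZNF706 peak. The macrosatellite genes DUX4L9, DUX4L18 and DUX4L26 were near ZNF706 regions only; the DUX4L9 region had 5.99 and 7.33 in ZNF706 and 3.76 in ZNF800 replicate 2. REXO1L8P, a copy of a repeated gene on chromosome 8, was near a ZNF800 region only, with 4.79 and 5.08.

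The gene lists held few of these genes. Over all 61228 gene names the shares were 0.0457% for ZNF706 and 0.0359% for ZNF800. Of 1828 U small nuclear RNA genes and copies, 4 were within 1 kb of a ZNF706 region and 5 of a ZNF800 region. Of 12 other polymerase III genes, ZNF706 had RN7SK and RN7SL1 and ZNF800 had RN7SK. Of 86 ribosomal protein genes, ZNF706 had RPS29, which lies beside RN7SL1, and ZNF800 none. Of 524 rRNA genes and copies, ZNF706 had RNA5SP162, with folds of 6.85 and 7.55, and ZNF800 none. At RNA5SP162 ZNF800 had a peak of 4.32 in replicate 2 only, and 18 of the other 34 ZFPs had a peak. None of 70 histone, 10 heat shock and 12 immediate early genes was near a region of either ZFP. The background lists were empty too. KLF4 and the 11 other pluripotency genes had no TSS within 1 kb of a peak even in 1 replicate of either ZFP. The same held for NEUROG3, INSM1 and the 8 other endocrine genes. At the shares over all genes, lists of 10 to 70 genes would mostly be empty, so the empty lists are not a result about their genes. The share over all genes was not taken for peaks of 1 replicate.

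Away from TSSs the regions were mainly intergenic. Intergenic positions held 166 ZNF706 and 243 ZNF800 regions, introns 38 and 21, and contigs without annotated genes 66 and 74. Over 100 kb from any TSS lay 74 and 113 regions. The nearest genes within 100 kb numbered 92 for ZNF706 and 77 for ZNF800, of which 25 and 21 are protein coding. Outside satellite-like regions, the GC box GGGCGG stood within 100 bp of the summit in 17 of 146 ZNF706 regions (11.6%) and 5 of 110 ZNF800 regions (4.55%), against 46.2% of 8070 such regions of the other 34 ZFPs. The CCAAT box stood in 4 and 2 regions (2.74% and 1.82%), against 17.4%. The AP-1 word TGACTCA went the other way, with 8 and 4 regions (5.48% and 3.64%) against 1.38%, and TATAAA stood in 1.37% and 4.55% against 2.42%. The pool of other ZFPs gives most weight to long lists such as that of APEX2, with 74.5% of its peaks near TSSs. The words were searched on both strands, along with others not shown, and their presence is a description. Most of the 146 and 110 regions are tandem or multi-copy repeats. Copies of a repeat can hold the same word, so the counts need not be of separate sequences.

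Single-copy regions were few. Beside the pseudogene and ZNF574, those of ZNF706 included an intron of ACSL3, a fatty acid-CoA ligase, at chr2:222866308-222866777 with 5.45 and 6.81, and an intergenic region at chr21:45055043-45055152 with 8.33 and 6.16. ZNF800 had a peak in replicate 2 only at both, with 6.21 and 9.45. Of the other 34 ZFPs, 15 had a peak at the ACSL3 region and 2 at the chromosome 21 region. On an unlocalized contig of chromosome 14 a ZNF706 region had 7.99 and 8.37, with a ZNF800 peak of 5.85 in replicate 2. Another such contig, chr14_GL000225v1_random, which led the 68-bp class in number, held 3 of the 8 single-copy ZNF706 regions. Beside the ZNF473 and ZNF574 exons, ZNF800 had an intergenic region near CKS2 at chr9:89254190-89254422 with 4.71 and 6.50 and no ZNF706 peak.

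Overlapping regions of the 2 ZFPs merged into 199 loci. They held 216 of 300 ZNF706 regions (72%) and 200 of 360 ZNF800 regions (55.6%). Shared regions also had peaks of more of the other ZFPs than regions not shared. On shared regions a median of 21 (ZNF706) and 21.5 (ZNF800) of the other 34 ZFPs had a peak, against 7 on regions not shared, for each ZFP. The overlap with each single other ZFP was not counted, so whether the sharing is particular to this pair was not tested. All lists of the series merge into 36731 regions, of which 0.689% held a ZNF706 region and 0.833% a ZNF800 region. Of the satellite-like regions of ZNF706, 149 of 154 were shared, and of those of ZNF800 132 of 250. Outside satellite-like sequence 67 of 146 ZNF706 and 68 of 110 ZNF800 regions were shared. Of the other tandem repeats, the shared ones were 21 of 54 ZNF706 regions and 22 of 38 ZNF800 regions. These counts follow from lists that may share a control and were not tested.

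Not being shared did not mean that the other ZFP had no signal. Of the 84 ZNF706 regions not shared, 29 had no peak in either ZNF800 list and 1 had peaks of both lists that did not overlap each other. Of the 160 ZNF800 regions not shared, 68 had no peak in either ZNF706 list, 89 had a peak in 1 list and 3 had such separate peaks of both. The 29 included 16 tandem repeats and 1 satellite-like region, and the 68 included 7 tandem repeats and 50 satellite-like regions. A tandem repeat at chr4:189490686-189491352 had 7.22 and 6.81 in ZNF706 and no ZNF800 peak. A repeat in an intron of ABR at chr17:1163647-1164034 had 5.77 and 5.32 in ZNF800 and no ZNF706 peak.

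**Figure D4:**
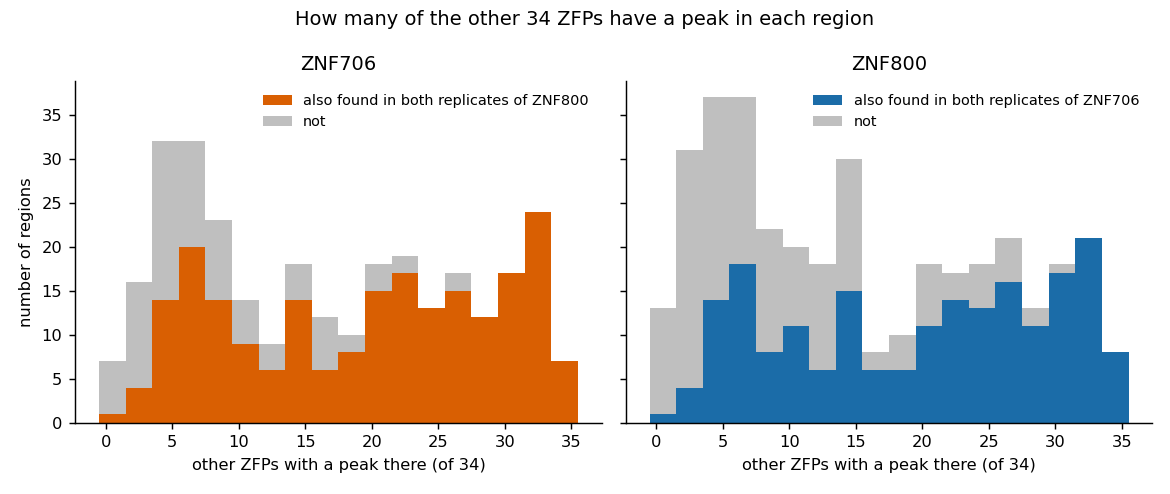
Number of the other 34 ZFPs with a peak in either replicate (horizontal, in steps of 2) against the number of regions (vertical) for ZNF706 (left) and ZNF800 (right). Coloured bars are regions also found in both replicates of the other ZFP and grey bars the rest; the medians are 15 for ZNF706 and 14 for ZNF800, and the rightmost bars, at 32 to 34 other ZFPs, are coloured throughout.

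Most regions were also on other lists, some of which may share a mock IP with ZNF706 and ZNF800. A peak of at least 17 of the other 34 ZFPs lay on 142 ZNF706 regions (47.3%) and 146 ZNF800 regions (40.6%). No peak of those 34 lay on 5 ZNF706 and 8 ZNF800 regions. Leaving out those with a peak in the other ZFP, ZNF706 had the pseudogene, the F13A1 intron repeat with 5.38 and 4.85, a repeat in an NCAPG2 intron with 3.81 and 3.89, and a multi-copy region placed on chromosome Y with 3.22 and 3.12. F13A1 encodes a subunit of a clotting factor that cross-links fibrin. For ZNF800 the strongest were a satellite-like region at chr17:26840550-26840866 with 5.96 and 5.15 and an alpha-length repeat at chr20:27506831-27507057 with 4.37 and 4.95.

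**Figure D5:**
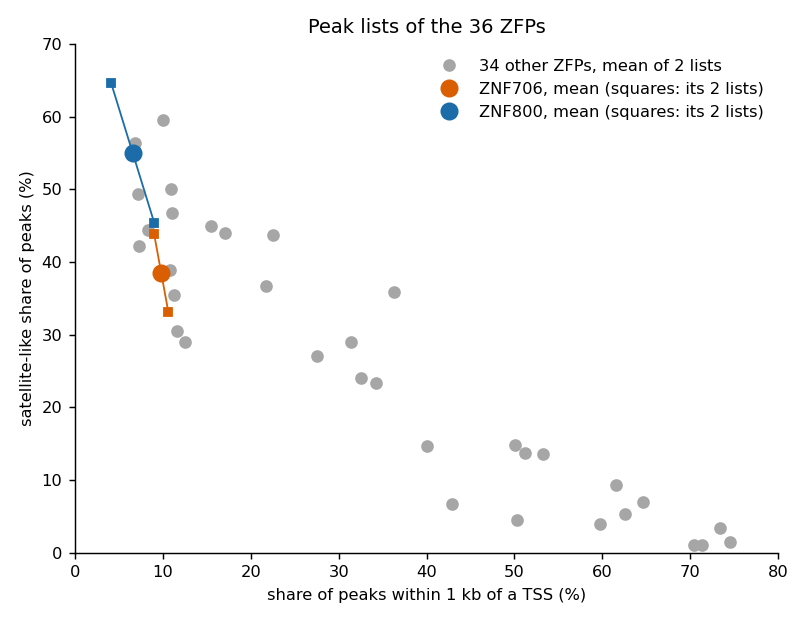
Percent of peaks with a TSS at most 1 kb away (horizontal) against the satellite-like share of peaks (vertical, percent) for the 36 ZFPs, as means of 2 lists, with the 2 lists of ZNF706 and ZNF800 as squares joined by a line. Both ZFPs sit toward the left, among other ZFPs, at 9.80% and 6.54% near TSSs.

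The last comparisons took whole lists. Within 1 kb of a TSS lay 8.99% and 10.6% of ZNF706 peaks in replicates 1 and 2, and 4.09% and 8.999% of ZNF800 peaks. The mean was 9.80% ± 1.15 (SD, n = 2) against 6.54% ± 3.47 (SD, n = 2). The difference of 3.26 percentage points was smaller than the larger spread, with p = 0.667 in an exact two-sided permutation test over the 4 lists, whose smallest possible p is 0.333. Satellite-like peaks were 43.9% and 33.1% in ZNF706 and 64.7% and 45.4% in ZNF800, with means of 38.5% ± 7.603 and 55.0% ± 13.6 (SD, n = 2). The lists did not overlap, and the exact permutation p was 0.333, the smallest possible.

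The same shares were set against the other ZFPs, each taken as the mean of 2 lists. By this mean ZNF800 had the lowest share near TSSs of all 36. By regions found in both replicates it stood 28th of 32 from the top, at 4.72%, and ZNF706 25th, with a lowest value of 1.02% in the others. In replicate 2 alone its 8.999% was above lists of several other ZFPs, ZNF317 among them at 2.58%. The difference of the ZNF800 mean from the mean of 33.8% ± 23.3 (SD) over the rest was -27.2 percentage points, with an exact two-sided permutation p of 0.25 (adjusted p = 0.50 over 4 such tests). For ZNF706 the difference was -23.9 points, with p = 0.389 by the same exact test (adjusted p = 0.519). The satellite-like share of ZNF800 was 28.5 points above the mean of 26.6% ± 18.1 (SD), with an exact permutation p of 0.0833 (adjusted p = 0.333). That of ZNF706 was 11.4 points above, with p = 0.75 by the exact test (adjusted p = 0.75). The smallest p this test allows is 0.0278, and no test passed 0.05. For a low share near TSSs the test could not pass, because it counts distance on both sides of the mean. APEX2, ZNF22, G2E3 and CTCF, at 70.4 to 74.5%, lie farther above the mean than any share can lie below it. The tests of shares near TSSs therefore cannot decide whether these low shares stand out. The spread between ZFPs was wide, with 6.54 to 74.5% of peaks near TSSs and 1.01 to 59.5% satellite-like.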

How the data were processed

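The deposited files are narrow peak lists, 1 per library and 72 in all, of which 4 belong to ZNF706 and ZNF800. Per the labels and methods, the authors used Trimmomatic 0.36 for trimming and bowtie2 2.3.5.1 for alignment to hg38 (inserts from 10 up to 700 bp), discarded duplicates with Picard, and ran MACS2 2.2.7.1 on every library by itself with a mock IP of the same batch as control, at an FDR of 0.05. The fold is the authors' ratio of signal over control at the summit. The deposited −log10 p and −log10 q, a q-value on a log scale, and the score made from it are also the authors'. The sources used here do not give how reads with several matches were placed, and a fold at a multi-copy region need not belong to that copy. The lists hold no read counts, so the depth per library is unknown and the number of peaks limits the precision.

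Peaks of the 2 replicates that overlapped by at least 1 bp made a region, and its summit is that of the peak with the highest fold. Distances run from the region's edge to the nearest GENCODE 44 TSS. Classes were given in the order satellite-like, small nuclear or 7SL RNA gene, 45S rRNA unit (at least 95% identity by BLAST+ 2.17.0 over at least 50% of the region), a period of 167 to 173 bp or of 66 to 70 or 134 to 140 bp with at least 40% matching bases within 601 bp and, for the longer one, no coding exon, other tandem repeat (at least 60%), other multi-copy and single-copy. These classes, like the members and gene lists, were chosen with earlier results of these data known. Named regions are the highest by the lower fold of the 2 replicates: for each ZFP up to 12 near a TSS, 8 distal, 4 satellite-like, 5 without a peak of another ZFP and 10 shared, plus own genes, EEF1A1, DEGS1 and genes of the lists; SNTG2, MUC3A, ACSL3, CKS2, ABR, DUX4L18, DUX4L26 and the chromosome 21 intergenic region were named after their values were seen. Shares were compared by exact two-sided permutation tests with Benjamini-Hochberg adjustment, in Python 3.11.15 with scipy 1.17.1. The procedures were tested on simulated data. Alternatives changed the q-value threshold, overlap rule, contigs, exclusions, distance limit, pentamer minimum and replicates used. Replicates are separate wells, and p-values of the tests over the 4 lists measure the spread between lists. Those of the tests against other ZFPs measure the spread between ZFPs, each taken as the mean of 2 lists. The sequences of some regions are not reported here.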

Additional observations from a re-analysis of the deposited data

How the results depend on the processing

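Of 119 alternatives over 15 results, 96 left the result alike, 23 moved it and none reversed a direction. A tested difference counted as alike on the same side of its test, a share within its interval, and a count of regions or loci within 1.5 times its value. For some tested differences this rule could not show a change. Tests between ZNF706 and ZNF800 had a smallest possible p of 0.333, and those of low shares near TSSs against other ZFPs could not pass either. Their alternatives could differ only by a reversed direction, so their part of the 96 says little about robustness. Joining peaks of either replicate gave 943 ZNF706 and 975 ZNF800 regions, with 11.1% and 7.59% near a TSS, 32.8% and 48.4% satellite-like, and 482 shared loci. Using 1 replicate alone gave 545 to 716 ZNF706 regions, with 8.99 to 10.6% near a TSS and 33.1 to 43.9% satellite-like, and 685 to 689 ZNF800 regions, with 4.09 to 8.999% and 45.4 to 64.7%; there were 377 shared loci without replicate 1 and 291 without replicate 2. With protein-coding TSSs only, 2.33% and 1.94% lay near a TSS, and with satellite-like regions left out 14.4% and 15.5%, with 67 shared loci. At least 10 pentamers left 62.2% of ZNF800 regions satellite-like. The cause of these shifts, apart from the change in which peaks or TSSs were counted, was not tested.

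The labels number the replicates, but nothing says that a number marks a shared batch. With the replicate number as a block, the difference between ZNF706 and ZNF800 stayed at 3.26 points near TSSs (4.90 in replicate 1 and 1.62 in replicate 2) and -16.6 points for satellite-like peaks (-20.8 and -12.3), with an exact sign-flip permutation p of 0.50 for both, the smallest that 2 pairs allow. No call changed, and none could pass at this size. The ZNF800 satellite-like share stood 38.6 points above the other ZFPs without replicate 2 and 18.3 without replicate 1. Depth is unknown, and multi-copy regions limit where a fold can be placed.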
